A study of Mus musculus with 18 samples.

Results

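The secondary (specific) granules of neutrophils are packed with a small set of antimicrobial and iron-binding proteins. Described here are 8 genes that encode such proteins or are switched on with them in the mouse, *Ltf*, *Lcn2*, *Camp*, *Ngp*, *Chil3*, *Lyz2*, *Cd177* and *Fcnb*, of 34896 genes in the expression table. They were taken as a fixed list of names, chosen with earlier results of these data known. Their transcript level was read in granulocyte-monocyte progenitors (GMPs), pre-neutrophils (preNeu) and mature neutrophils (matNeu). The chromatin remodeler CHD4 in WT and *Gfi1*-/- GMPs and the histone mark H3K4me2 in the 3 cell types were read at the same genes, from 10 kb before to 10 kb after the gene body.

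Neutrophils fill their granules in order as they mature: the primary (azurophil) granules with myeloperoxidase and serine proteases in promyelocytes, the secondary granules in myelocytes, and the tertiary (gelatinase) granules later. A protein goes to the granule that forms while its gene is transcribed, so that granule genes are markers of the stage. The transcription factor C/EBPε is needed for secondary granules, in mice and humans. GFI1 is a transcriptional repressor required for neutrophil development, and CHD4 is the ATPase of the NuRD complex, which combines nucleosome remodeling with histone deacetylation. H3K4me2 marks promoters and enhancers that are active or poised.

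All samples came from the bone marrow of adult C57BL/6 mice aged 6 to 12 weeks. RNA-seq comprised 9 WT libraries, 3 for each cell type. CHD4 ChIP-seq comprised 1 library of WT GMPs and 1 of GMPs with a deletion of *Gfi1* in every cell of the animal. H3K4me2 ChIP-seq comprised 1 library per cell type of WT mice. ATAC-seq comprised 1 sample titled WT preNeu and 1 titled WT matNeu, whose deposited peak lists were identical. GMPs were sorted as lin-cKIT+SCA-CD16/32+CD34+ cells after pooling the marrow of several bones, and preNeu and matNeu cells by MAC-1, GR1, cKIT, CXCR4, Siglec-F and CXCR2. Nothing states that libraries of a cell type came from separate animals, so that p-values measure the spread between these libraries, which may be technical.

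The cell type tags of 13 of the 18 samples, all 9 RNA libraries among them, name another cell type than the titles, and the titles were followed. Levels in the RNA followed the titles. *Cd34*, which defines the GMP gate, had 469.9 ± 39.0 TPM (transcripts per 1000000 transcripts, SD, n = 3) in libraries titled GMP and 2.21 ± 1.02 in those titled preNeu. *Cxcr2*, which defines the matNeu gate, had 3468 ± 478 TPM in libraries titled matNeu and 76.4 ± 15.1 in preNeu. The H3K4me2 lists cannot be checked this way. TPM keeps no read depth, and 10754 to 12256 genes passed 1 TPM in each library. In bulk RNA a smaller number of cells of a type and less RNA per cell cannot be told apart. Markers of monocytes (6 genes) had summed levels of 1946 to 2339 TPM across the GMP libraries, 40.7 to 68.2 across the preNeu libraries and 267 to 381 across the matNeu libraries, where *Csf1r* alone had 304 ± 48.6 TPM. Those of lymphoid cells (5 genes) had 0.883 to 1.57, 8.71 to 22.5 and 26.0 to 67.4 TPM in the same order, with *Cd3e* and *Ncr1* under 1 TPM on average in every cell type. The 4 genes of erythroid cells summed to at most 9.43 TPM in any library, and the 5 of eosinophils and basophils to 1102 to 1282, 304 to 482 and 39.8 to 51.7 TPM. Of these 5, 3 fell from GMPs to preNeu cells. The others were *Mcpt8*, with 97.3 ± 16.9 and 76.4 ± 24.0 TPM, and *Prss34*, with 149 ± 43.7 and 274 ± 63.7 TPM. The 4 markers of cycling cells summed to 718 to 756, 1481 to 1636 and 6.21 to 10.3 TPM. The part of such cells in the results below was not tested.

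The genes lie on 5 chromosomes (GRCm38, GENCODE M21). *Camp* (chr9:109847379-109849617, minus strand), *Ngp* (chr9:110419747-110423012, plus strand) and *Ltf* (chr9:111019271-111042767, plus strand) lie within 1.20 Mb of each other. *Fcnb* (chr2:28076378-28084885) and *Lcn2* (chr2:32384633-32388252) share chromosome 2, and *Chil3* (chr3:106147554-106167564), *Cd177* (chr7:24743983-24760311) and *Lyz2* (chr10:117277331-117282321) stand alone, all 5 on the minus strand. The promoter sequences are shown because all 8 genes rose from GMPs to preNeu cells. RefSeq promoters (GRCm38.p6, 250 bases before to 50 after the start) were found for 8 of 8 genes and searched for 4 short words. The letters bound by C/EBP factors, TTNNGNAA on either strand, were in 7 of the 8 promoters (all but *Camp*), against 40.7% of 27025 promoters. AAATCA, the core bound by GFI1, was in those of *Ltf* and *Chil3* (14.3% of all promoters), and TATAAA on the coding strand in those of *Chil3* and *Cd177* (8.88% of all promoters). GAGGAAGT, the SPI1 (PU.1) word, was in 0 of 8 (3.28% of all promoters). A match is a description of letters, not of binding. The 100 bases ahead of the annotated exons are given 5′ to 3′ on the coding strand for 6 genes, with every match of these words in capitals, at chr9:111019171-111019270 (*Ltf*), chr9:110419647-110419746 (*Ngp*), chr3:106167565-106167664 (*Chil3*), chr10:117282322-117282421 (*Lyz2*), chr7:24760312-24760411 (*Cd177*) and chr2:28084886-28084985 (*Fcnb*).
Ltf: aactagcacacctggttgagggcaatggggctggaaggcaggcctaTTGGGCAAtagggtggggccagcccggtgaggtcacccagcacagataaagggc
Ngp: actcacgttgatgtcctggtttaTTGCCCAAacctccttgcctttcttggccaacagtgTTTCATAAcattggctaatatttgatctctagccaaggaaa
Chil3: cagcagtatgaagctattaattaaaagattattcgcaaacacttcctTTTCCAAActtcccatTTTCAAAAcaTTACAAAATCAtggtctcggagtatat
Lyz2: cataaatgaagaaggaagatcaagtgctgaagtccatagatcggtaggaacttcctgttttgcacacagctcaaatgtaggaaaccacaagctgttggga
Cd177: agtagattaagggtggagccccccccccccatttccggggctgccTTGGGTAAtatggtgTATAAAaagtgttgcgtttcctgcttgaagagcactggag
Fcnb: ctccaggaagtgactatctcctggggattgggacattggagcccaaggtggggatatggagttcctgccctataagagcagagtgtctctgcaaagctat
Matches of the C/EBP word stand in 4 of these runs, those of *Ltf*, *Ngp*, *Chil3* and *Cd177*. In *Chil3* its last match overlaps the AAATCA word, and in *Cd177* it lies a few bases ahead of the TATAAA.

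From GMPs to preNeu cells all 8 genes rose, and *Ngp*, *Camp* and *Ltf* had the 3 largest log2 increases of 13061 genes tested. Over all genes tested, 14.7% were higher in preNeu cells and 44.3% lower (limma on log2(TPM + 1), Benjamini-Hochberg adjusted p at a threshold of 0.05). The members' log2 changes ran from 5.30 to 12.56 with a median of 9.65, against a median of -0.52 over all genes tested. TPM is a share of the library, and the other genes' shares shrink as these genes take theirs: with each library centred on its median the calls over all genes were 3828 higher and 3166 lower in place of 1925 and 5781, and the 8 members kept their calls.

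*Ltf* encodes lactoferrin, which withholds iron from microbes. It had 7.94, 6.23 and 4.22 TPM in the GMP libraries and 23924, 24636 and 27605 TPM in the preNeu libraries. The change was 4141-fold in mean TPM and 11.83 ± 0.20 on the log2 scale (SE, limma adjusted p = 9.12e-11). *Camp* encodes the cathelicidin precursor, from which an antimicrobial peptide is cut. Its level was 1.99, 1.91 and 0.653 TPM in GMPs and 12045, 9316 and 9261 TPM in preNeu cells, a rise of 12.02 ± 0.33 on the log2 scale (limma adjusted p = 1.69e-09). *Ngp*, a neutrophil granule protein related to cystatins, rose from 12.6, 10.5 and 9.18 TPM to 82697, 73686 and 57803 TPM and was the most abundant transcript of preNeu cells. None of these genes had a preNeu library near any GMP library.

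*Lcn2* encodes lipocalin 2, which binds the siderophores that bacteria use to collect iron. GMPs had 10.5, 8.96 and 14.9 TPM of it and preNeu cells 10888, 8703 and 7087 TPM, a 776-fold rise (log2 9.49 ± 0.19, limma adjusted p = 2.15e-10). *Cd177*, a glycoprotein that neutrophils carry in granules and on the surface, went from 7.19, 3.74 and 8.36 to 4349, 4714 and 4960.0 TPM (log2 9.35 ± 0.24). *Chil3* encodes the chitinase-like lectin Ym1. It started higher, at 61.9, 38.9 and 35.5 TPM, and reached 41328, 37138 and 43422 TPM (log2 9.81 ± 0.18, limma adjusted p = 1.18e-10), the second most abundant transcript. These 3 genes took places 8, 9 and 5 among the increases of all genes tested.

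*Fcnb* and *Lyz2* had the smallest log2 increases of the 8. *Fcnb* encodes ficolin B, a lectin that can start the complement cascade, and rose 103-fold from 34.6, 34.2 and 42.2 TPM to 4049, 3902 and 3532 TPM (log2 6.66 ± 0.14, limma adjusted p = 2.43e-10). *Lyz2* encodes lysozyme M, which cuts bacterial cell walls, is stored in other granules too, and is also a gene of monocytes and macrophages. It was the only member above 100 TPM in GMPs, with 1088, 613 and 765 TPM, and rose 38.4-fold to 35691, 29738 and 29242 TPM (log2 5.30 ± 0.19, limma adjusted p = 1.13e-08). The summed monocyte markers were highest in the same GMP libraries, as given above. Among them only *Csf1r* had a higher mean in matNeu cells, 304 ± 48.6 against 204 ± 24.1 TPM in GMPs (limma adjusted p = 0.0948). The part of monocytes in the *Lyz2* level of GMPs was not tested.

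**Figure D1:**
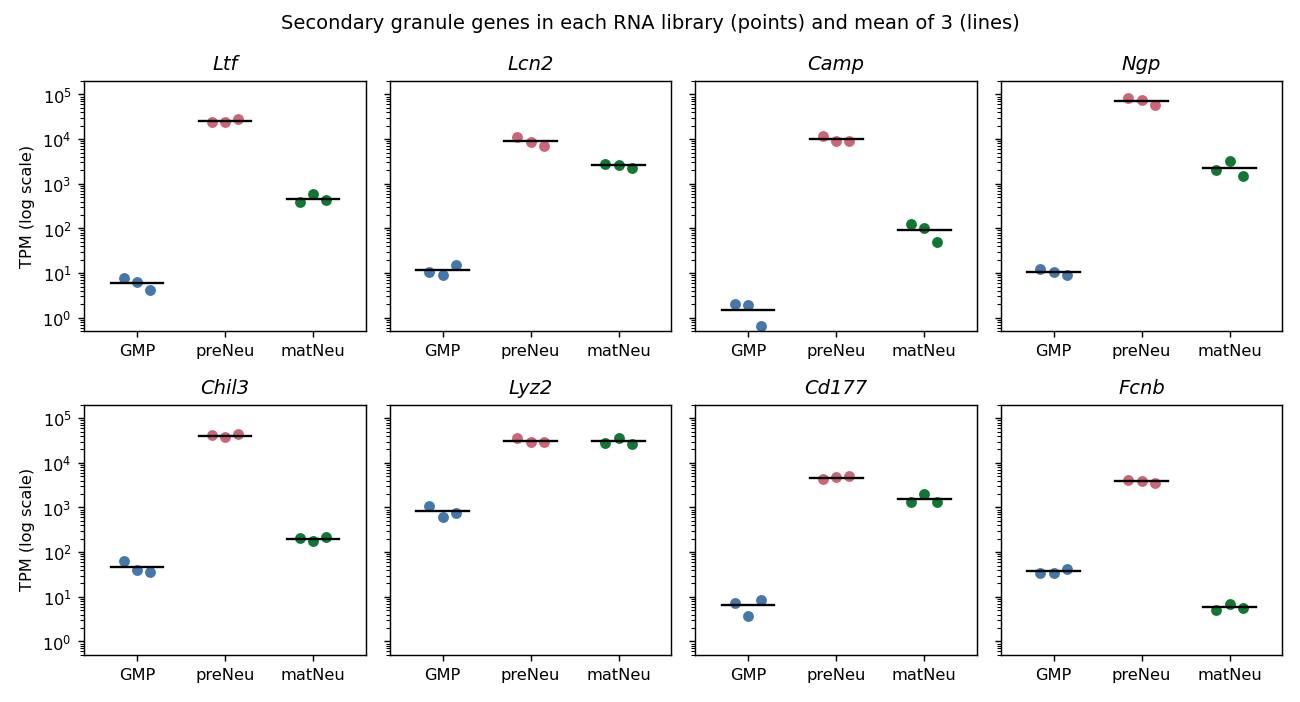
TPM of each secondary granule gene on a log scale, with a point for every RNA library and a line at the mean of 3. All 8 genes are highest in preNeu cells by mean, *Lyz2* has overlapping TPM in preNeu and matNeu libraries, and *Fcnb* falls below its GMP level.

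From preNeu to matNeu cells 7 of the 8 genes fell, over a range that set them apart from each other, and *Lyz2* did not pass the test. Over all genes tested 39.8% were lower and 22.9% higher in matNeu cells (5202 and 2995 genes; with each library centred on its median, 3251 and 5530), and the median log2 change was -0.32, against -5.40 for the members. *Fcnb* fell furthest, from the levels above to 5.17, 6.85 and 5.68 TPM, which is 649-fold lower and the third largest decrease of the 13061 genes (log2 -9.12 ± 0.14, limma adjusted p = 4.20e-11). *Chil3* was 203-fold lower, at 205, 178 and 217 TPM (log2 -7.66 ± 0.18, limma adjusted p = 4.90e-10). *Camp* was 109.9-fold lower, at 126, 102 and 50.3 TPM, far below each of its preNeu libraries.

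*Ltf* and *Ngp* fell by intermediate amounts. *Ltf* had 400.2, 578 and 423 TPM in matNeu cells, 54.3-fold lower than in preNeu cells (log2 -5.78 ± 0.20, limma adjusted p = 2.82e-09). *Ngp* had 2075, 3245 and 1529 TPM, 31.3-fold lower (log2 -5.02 ± 0.24). *Lcn2* kept more of its level: it was 3.41-fold lower, at 2833, 2691 and 2307 TPM (log2 -1.75 ± 0.19, limma adjusted p = 1.58e-05). *Cd177*, whose product is displayed on the surface of mature neutrophils, was 2.99-fold lower, at 1359.7, 1982 and 1349 TPM (log2 -1.60 ± 0.24, limma adjusted p = 1.45e-04). In each of these genes the preNeu and matNeu libraries did not overlap.

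*Lyz2* had 28376, 35226 and 26946 TPM in matNeu cells, overlapping its preNeu libraries. The log2 change was -0.07, with a 95% interval from -0.50 to 0.36 (limma adjusted p = 0.783), which leaves room for a modest change either way. With each library centred on its median the change was 0.70 (limma adjusted p = 0.0207), so that its direction depends on the scaling. It was the most abundant transcript of matNeu cells.

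Against GMPs, matNeu cells still held more of 7 genes and less of *Fcnb*. Over all genes 22.8% were higher and 54.1% lower (2976 and 7065; with each library centred on its median, 6023 and 4063). *Cd177* and *Lcn2* had the largest remaining differences, 243-fold (log2 7.75 ± 0.24) and 228-fold (log2 7.74 ± 0.19, limma adjusted p = 2.45e-10), and *Chil3* the smallest, 4.41-fold (log2 2.15 ± 0.18, limma adjusted p = 1.09e-06). *Fcnb* was 6.27-fold lower than in GMPs (log2 -2.46 ± 0.14, limma adjusted p = 4.17e-08), with no overlap between the libraries. With each library centred on its median all 8 kept these calls.

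Together the 8 genes took 0.0941 ± 0.0259% of all TPM in GMPs, 19.7 ± 1.65% in preNeu cells and 3.74 ± 0.586% in matNeu cells (SD, n = 3). By library the shares were 0.123, 0.0718 and 0.0880%, then 21.5, 19.2 and 18.3%, then 3.54, 4.40 and 3.28%. The cell types did not overlap. *Ngp* made up 36.3% of the members' TPM in preNeu cells and *Chil3* 20.7%. *Lyz2* made up 87.4% of it in GMPs and 80.7% in matNeu cells, so that in those cells the summed level is mostly that of *Lyz2*.

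**Figure D2:**
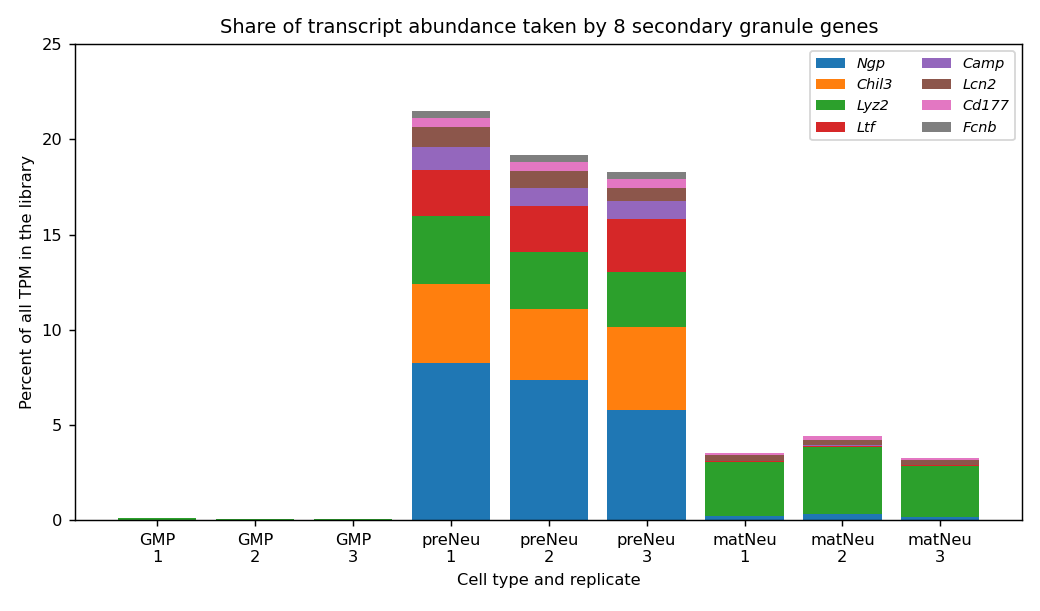
Stacked bars of the percent of all TPM that each of the 8 genes took in each RNA library. The bars reach 18.3 to 21.5% in preNeu libraries with every gene visible, 3.28 to 4.40% in matNeu libraries, mostly *Lyz2*, and at most 0.123% in GMP libraries.

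The order of the genes by TPM, which is per transcript length, changed with the stage. In GMPs *Lyz2* (822 ± 243 TPM) stood above *Chil3* (45.4 ± 14.4) and *Fcnb* (37.0 ± 4.50), whose libraries overlapped, then *Lcn2* and *Ngp*, which overlapped, *Cd177* and *Ltf*, which overlapped, and *Camp* (1.52 ± 0.751). In preNeu cells the order was *Ngp* (71395 ± 12604), *Chil3* (40629 ± 3199.8), *Lyz2* (31557 ± 3589), *Ltf* (25388 ± 1952), *Camp* (10207 ± 1591), *Lcn2* (8892 ± 1908), *Cd177* (4674 ± 307) and *Fcnb* (3828 ± 266), and of these neighbours *Camp* and *Lcn2* overlapped. In matNeu cells *Lyz2* (30183 ± 4426) stood 1st, *Lcn2* (2611 ± 272), *Ngp* (2283 ± 876) and *Cd177* (1564 ± 363) followed with overlapping neighbours, and *Fcnb* (5.90 ± 0.864) stood last. All 8 genes were highest in preNeu cells by mean, as were 15.3% of the genes tested.

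Across the 9 libraries, which form 3 groups, so that a correlation mostly compares 3 means, the genes most like each member were looked up among 9490 genes (Pearson correlation of log2(TPM + 1), a description with no test). For *Cd177* and *Lcn2* the same 3 genes were closest: *Olfm4*, *Clec4a2* and *F5*, with correlations of 0.9993, 0.9973 and 0.9961 for *Cd177*. *Ltf* was closest to *Syne1*, *Olfml2b* and *Slc25a24*, *Camp* to *Olfml2b*, *Ltb4r1* and *4930438A08Rik*, and *Ngp* to *Ceacam1*, *Id2* and *Megf9*. *Chil3*, which drops steeply after preNeu, was closest to *Cldn1*, *Inhba* and *C3*, and *Fcnb* to *Tuba8* and *Mpzl1*. *Lyz2*, with similar TPM in preNeu and matNeu cells, was closest to *Ankrd22*, *Slc35d2* and *Sh3bp5*. Every one of these correlations was 0.9918 or higher.

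Close relatives of the members matter because short reads from near-identical stretches can be assigned to either gene. Of the 31-base words in *Lyz2* transcripts, 32.8% also occur in *Lyz1*, and of those in *Chil3*, 28.9% occur in *Chil4* and 41.5% in any other gene. *Cd177* shares 6.93% with other genes and the other 5 members share 0. *Lyz1*, the Paneth cell lysozyme, was listed at 0.381 ± 0.557, 8.77 ± 0.640 and 7.36 ± 1.31 TPM in GMP, preNeu and matNeu cells, and *Chil4* at 0, 17.2 ± 4.63 and 0.269 ± 0.349 TPM. Both profiles follow those of their abundant relative, at a level far below it, and whether those reads belong to them is uncertain. *Chil1*, a chitinase-like gene of another pattern, rose from 0.717 ± 0.612 TPM in GMPs to 1425 ± 94.0 in preNeu cells (log2 9.76 ± 0.23, limma adjusted p = 7.17e-10) and had 2131 ± 287 TPM in matNeu cells (log2 0.57 ± 0.23, limma adjusted p = 0.0512). With each library centred on its median this second difference was 1.34 (limma adjusted p = 6.66e-04). *Fcna*, the second ficolin, had 2.21 ± 0.593, 39.4 ± 8.15 and 7.13 ± 1.42 TPM, lower than *Fcnb* in both GMPs and preNeu cells.

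The 10 genes listed as regulators, *Chd4* among them, changed in several ways. Their listing does not show that each acts on granule genes. *Cebpe* had 16.2, 28.9 and 48.5 TPM in GMPs, 551, 588 and 437 in preNeu cells and 44.6, 51.9 and 36.4 in matNeu cells. It rose by 4.15 ± 0.32 on the log2 scale (limma adjusted p = 2.43e-06) and then fell by 3.54 (limma adjusted p = 2.93e-06), highest in preNeu cells like the members. *Cebpd* rose in both steps (log2 2.75 ± 0.51 and 1.56 ± 0.51, limma adjusted p = 8.89e-04 and 0.0200), as did *Spi1*, which encodes PU.1 (1.08 ± 0.23 and 1.40 ± 0.23, limma adjusted p = 0.00208 and 2.92e-04). *Gfi1* had 8.01, 5.88 and 17.5 TPM in GMPs and 20.1, 23.2 and 29.2 in preNeu cells (log2 1.25 ± 0.35, limma adjusted p = 0.0108), and was listed at 0, 0 and 0.145 TPM in matNeu cells. *Chd4* had 79.8 ± 7.60, 42.2 ± 6.41 and 31.7 ± 4.36 TPM in GMP, preNeu and matNeu cells. Its share of TPM fell in the first step (log2 -0.91 ± 0.17, limma adjusted p = 8.26e-04), but with each library centred on its median the change was -0.28 (limma adjusted p = 0.128). In the second step the values were -0.40 (limma adjusted p = 0.0581) and, so centred, 0.37 (limma adjusted p = 0.0442), so that the direction depends on the scaling.

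*Cebpa*, which acts before *Cebpe* in the lineage, fell in the first step (log2 -1.74 ± 0.27, limma adjusted p = 3.07e-04), and held this call with each library centred on its median. *Runx1* (-0.86 ± 0.16) and *Rara*, a retinoic acid receptor (-0.80 ± 0.23, limma adjusted p = 0.0116), passed the test in the first step but not when so centred (-0.23 and -0.16). In the second step *Rara* rose by 5.48 ± 0.23 on the log2 scale (limma adjusted p = 1.03e-08), and *Runx1* (-0.76) and *Cux1* (-0.86, limma adjusted p = 9.90e-04) fell, but not when so centred (0.00 and -0.10). *Cebpa* had a log2 difference of 0.24 ± 0.27 (limma adjusted p = 0.465), which became 1.01 (limma adjusted p = 0.00705) when so centred. *Cux1* in the first step (log2 -0.20 ± 0.17) and *Cebpb* in both steps did not pass the test, and when so centred both passed in the first step as higher (0.43 and 3.18, limma adjusted p = 0.0295 and 0.0323). *Cebpb* had 0.120 ± 0.133, 6.86 ± 5.06 and 36.7 ± 55.0 TPM, with very unequal libraries. In all, 4 of 10 regulators rose and 4 fell from GMPs to preNeu cells, and 3 rose and 4 fell from preNeu to matNeu cells. With each library centred on its median these counts were 6 and 1, then 5 and 2. Over all genes tested, without centring, 14.7% rose and 44.3% fell in the first step. In the second step 22.9% rose and 39.8% fell.

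Of 17 further genes of specific granules 16 were tested. From GMPs to preNeu cells 12 rose, 1 fell and 3 did not pass the test, against 14.7% higher and 44.3% lower over all genes. The median log2 change of the 16 was 3.59, against -0.52. The largest increases were those of *Olfm4*, which marks a subset of neutrophils (7.86 ± 0.19, limma adjusted p = 8.04e-10), *Lrg1* (7.69 ± 0.21) and the acute-phase protein gene *Orm1* (6.26 ± 0.35). *Stom*, a membrane protein gene, was the 1 that fell (-0.54 ± 0.18, limma adjusted p = 0.0216), though not with each library centred on its median (0.09), and the log2 differences of *Slpi*, *Cfp* and *B2m* were -0.22, 0.06 and -0.20. When so centred *Cfp* was called higher (0.69, limma adjusted p = 3.18e-04), as it was in scaling without the 10 most abundant genes (0.34, limma adjusted p = 0.00935), and under either scaling 13 rose and 0 fell. From preNeu to matNeu cells 8 of these 16 rose and 4 fell (12 and 4 when so centred). Over all genes tested 22.9% rose and 39.8% fell. The median log2 change of the 16 was 0.52, against -0.32. *Slpi*, *Cfp* and *B2m* were among the 8 that rose (log2 4.58, 2.38 and 0.93). The 4 that fell were *Olfm4* (-1.36 ± 0.19), *Orm1* (-4.52 ± 0.35), *Stom* (-4.98 ± 0.18) and *Cybb*, the oxidase subunit of the granule membrane, which had 1965 ± 179.8 TPM in preNeu and 286 ± 41.4 in matNeu cells.

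Genes that build or release granules showed no common direction in the first step. Of 15, 5 rose and 6 fell from GMPs to preNeu cells, against 14.7% higher and 44.3% lower over all genes tested. Their median log2 change was -0.19, against -0.52. The 5 that rose act in granule formation or release: *Stx11* (2.53 ± 0.24, limma adjusted p = 1.10e-05), *Lyst* (1.05 ± 0.20), *Unc13d* (0.88 ± 0.13), *Nbeal2* (0.85 ± 0.15) and *Stxbp2* (0.54 ± 0.11). Among those that fell were *G6pc3* (-2.92 ± 0.30, limma adjusted p = 1.51e-05) and *Jagn1* (-2.15 ± 0.30), genes whose loss causes neutropenia in humans. The 4 that did not pass the test were *Ap3d1* (-0.19), *Vps45* (-0.50), *Rab27a* (0.27) and *Vamp8* (0.23). From preNeu to matNeu cells 9 of the 15 rose and 3 fell, *G6pc3*, *Jagn1* and *Vps45*, against 22.9% higher and 39.8% lower over all genes tested. The median log2 change of the 15 was 0.59, against -0.32. With each library centred on its median the counts were 7 and 4 in the first step and 12 and 3 in the second. Of 7 genes for partners or receptors of the members' products 3 were tested: *Fpr2*, the receptor of the cathelicidin peptide, was listed at 0 in GMPs, rose to 86.7 ± 11.6 TPM in preNeu cells and had 284 ± 38.5 in matNeu cells, and *Pecam1*, which binds CD177, and *Lrp1* fell in the first step (log2 -2.75 ± 0.33 and -0.79 ± 0.31, limma adjusted p = 5.26e-05 and 0.0463). *Lrp1* lost this call when so centred (-0.16).

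The other granule classes moved on other schedules. The 6 primary granule genes summed to 45868 ± 1011 TPM in GMPs, 9078 ± 569.9 in preNeu and 117 ± 6.13 in matNeu cells, and from GMPs to preNeu cells 5 fell, *Ctsg* (-3.31 ± 0.40), *Ctsc* (-3.11 ± 0.22), *Mpo* (-2.68 ± 0.32, limma adjusted p = 5.14e-05), *Prtn3* (3.95-fold lower in mean TPM) and *Gusb* (-1.10 ± 0.15). *Elane* did not pass (-1.38 ± 0.59, limma adjusted p = 0.0684). The 5 kept their calls with each library centred on its median. Over all genes tested 44.3% were lower and 14.7% higher in preNeu cells than in GMPs. The 4 tertiary granule genes *Mmp9*, *Mmp25*, *Retnlg* and *Adam8* rose in both steps under each scaling, from a sum of 2.66 ± 1.81 TPM to 609 ± 59.6 and 17844 ± 2803. *Mmp9*, gelatinase B, had 1.01 ± 0.251, 401 ± 51.6 and 6539 ± 184 TPM. The summed levels were highest in GMPs for the 6 primary granule genes and in matNeu cells for the 4 tertiary ones. For the 8 members they were highest in preNeu cells. This did not hold for the 17 further genes of specific granules, which were highest in matNeu cells. They summed to 3034 ± 370.5, 11457 ± 296 and 24732 ± 1689 TPM in GMP, preNeu and matNeu cells.

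H3K4me2 peaks covered little of most of the 8 loci in GMPs, and 49.1 to 77.0% of each in preNeu cells. In GMPs 6 of 8 genes had a peak in the gene body or within 10 kb (73.6% of 21938 protein-coding genes did), and *Camp* and *Ngp* had 0. A GMP peak lay over the gene start at *Lyz2* and *Fcnb*, 2 of 8, against 49.7% of all genes. In preNeu cells 8 of 8 had a peak (74.2% of all) and 8 of 8 had it over the start (55.2% of all). In matNeu cells both counts were again 8 of 8, against 72.1% and 52.8% of all genes. There was 1 library per cell type, so that these differences have no replicate check.

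The preNeu peaks at these genes were wide. The peak over the *Ltf* start ran 37.4 kb, from well upstream into the gene body (chr9:111002293-111039727), and was the 5th widest of 49578 in its list. Those over *Fcnb* (chr2:28077531-28100041) and *Camp* (chr9:109844459-109866949) both ran 22.5 kb and were the 41st and 42nd widest. *Chil3* and *Cd177* had domains of 18.5 kb, *Lcn2* of 18.2 kb, *Lyz2* of 16.8 kb and *Ngp* of 13.8 kb, the last of which was the 275th widest. The median width in the list was 1.22 kb and the 99th percentile 11.2 kb, so that all 8 lay above that percentile. Their fold enrichment over background, as the peak caller gave it, was 9.71 to 13.5 against a list median of 4.55.

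In GMPs the peaks at these genes were shorter, in a list with a median width of 0.909 kb and a median fold of 2.89. Over a gene start, the peak was 2.65 kb at *Lyz2* (fold 2.74), the 4451st widest of 37643, and 0.865 kb at *Fcnb* (fold 3.03). *Lcn2* had 3 GMP peaks of 1.47, 2.07 and 3.68 kb, all wider than that median, with folds of 3.84, 2.64 and 4.19, of which the middle one ended just short of the gene start. *Ltf* had 2, both downstream of the gene, and *Chil3* and *Cd177* had 1 and 2 away from the start. Measured as the percent of the gene body with 10 kb on either side that peaks covered, the members had a median of 2.66% in GMPs (range 0 to 29.6%), 68.6% in preNeu cells (49.1 to 77.0%) and 53.5% in matNeu cells (32.9 to 77.6%). The medians over all protein-coding genes were 3.83, 6.43 and 4.81%.

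In matNeu cells the domains were kept at some genes and cut back at others. At *Lcn2* the peak ran 18.0 kb in place of 18.2 kb and at *Cd177* 17.5 kb in place of 18.5 kb, and *Lyz2*, whose RNA did not change by the test, had 18.0 kb in place of 16.8 kb. At *Ltf* the 37.4-kb domain was split into pieces of 8.81, 17.1 and 2.87 kb, and at *Chil3* the domain shrank to 12.0 kb. *Fcnb* had lost the stretch just upstream of its start: a piece of 5.53 kb over the start reached 0.214 kb upstream with a fold of 3.41, near the list median of 3.78, and a piece of 11.4 kb (fold 6.45) lay further upstream. *Camp* and *Ngp*, whose RNA was 109.9-fold and 31.3-fold lower, still had domains of 19.5 kb and 11.2 kb with folds of 7.24 and 8.50. Coverage of the window by matNeu against preNeu peaks was 76.4 against 77.0% at *Lcn2*, 52.0 against 55.8% at *Cd177*, 69.1 against 70.6% at *Camp*, 50.9 against 59.4% at *Ngp*, 55.0 against 76.0% at *Ltf*, 46.3 against 66.6% at *Fcnb* and 32.9 against 49.1% at *Chil3*, and it was higher at *Lyz2*, 77.6 against 72.6%.

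**Figure D3:**
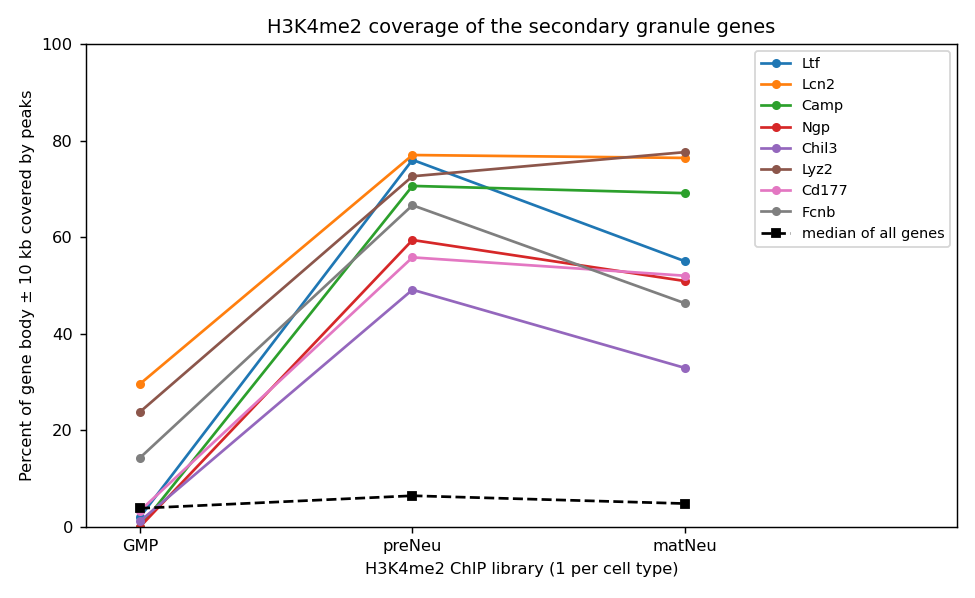
Percent of each gene body with 10 kb on either side that H3K4me2 peaks cover in GMP, preNeu and matNeu cells, with 1 library each, and the median of all protein-coding genes as a dashed line. All 8 genes climb from at most 29.6% to at least 49.1% in preNeu cells, and *Ltf*, *Fcnb* and *Chil3* drop most in matNeu cells.

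CHD4 peaks were listed at 4 of the 8 genes. In WT GMPs 26 of them lay in or within 10 kb of 4 genes, 9 at *Ltf*, 8 at *Lyz2*, 5 at *Fcnb* and 4 at *Chil3*, and 0 at *Lcn2*, *Camp*, *Ngp* and *Cd177*. A share of 32.4% of protein-coding genes had such a peak. The 3 members with the highest mean TPM in GMPs, *Lyz2*, *Chil3* and *Fcnb*, were among the 4, and *Ltf*, at 6.13 ± 1.86 TPM, was the other. In *Gfi1*-/- GMPs the same 4 genes had 12 peaks, against 10.2% of all genes with a peak. Peaks were called by the authors in each library, of which there was 1 per genotype, and the *Gfi1*-/- list was shorter as a whole (7316 against 35790 peaks), for which the read depth is not known. The study itself counted far fewer CHD4 peaks in WT GMPs. It reported that most sites shared with GFI1 lost CHD4 without GFI1, and that sites with CHD4 alone largely kept it. Shares kept in this longer list are therefore not those of the study.

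The CHD4 sites at these genes were strong. Their median fold enrichment was 15.8 (range 4.89 to 74.1) against 7.72 over all WT peaks. The strongest lay 2.83 kb upstream of *Lyz2* (chr10:117284453-117286005, fold 74.1), the 27th of the whole list by fold, and 6.11 kb upstream (chr10:117288030-117289255, fold 70.4), the 43rd. At *Fcnb* the strongest lay 7.40 kb upstream (chr2:28091739-28092855, fold 47.2), at *Chil3* 3.24 kb upstream (chr3:106170534-106171108, fold 23.3). *Ltf* differed in that its strongest sites were intronic, 14.7 kb (chr9:111033709-111034418, fold 33.5) and 16.6 kb (chr9:111035618-111036215, fold 28.9) into the gene. A CHD4 peak lay over the annotated start at *Lyz2*, *Chil3* and *Fcnb* and not at *Ltf*.

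Without GFI1 11 of the 26 sites, 42.3% (95% Wilson interval 25.5 to 61.1%, counting error only), were overlapped by a CHD4 peak, against 18.5% of all WT peaks. By gene, 2 of 9 were kept at *Ltf*, 3 of 8 at *Lyz2*, 3 of 5 at *Fcnb* and 3 of 4 at *Chil3*. Strength went with it: the kept sites had a median fold of 28.9 and the lost sites of 10.5. Among the 10% of WT peaks with the highest fold, 7 of 8 sites at these genes were kept, against 92.9% of all such WT peaks, and among weaker peaks 4 of 18 (22.2%) against 10.3%. A site can leave a list by a small loss of signal, and 26 sites at 4 genes are not independent of each other.

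Split by place, which was done after the values were seen, the sites upstream of the genes were mostly kept. Only 3 sites lay at promoters, too few to set apart from promoter peaks at other genes. Of 9 sites 2 to 10 kb upstream, 8 were kept, against 17.7% of WT peaks so placed at any protein-coding gene. Of 3 promoter sites (2 kb upstream to 500 bp downstream of a start) 0 were kept. The share of promoter peaks kept at all genes was 16.4%, and 0 of 3 does not differ from it visibly. The promoter sites lost were those of *Lyz2* (chr10:117281755-117282542, fold 26.7), *Fcnb* (chr2:28084765-28085326, fold 17.1) and *Chil3* (chr3:106167182-106167703, fold 10.5). The upstream sites had folds of 13.5 to 74.1 and the promoter sites of 10.5 to 26.7, and neither these counts nor the shares of all genes were matched for fold. Within the genes 2 of 5 intronic sites and 0 of 1 exonic sites were kept, and downstream 1 of 8.

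**Figure D4:**
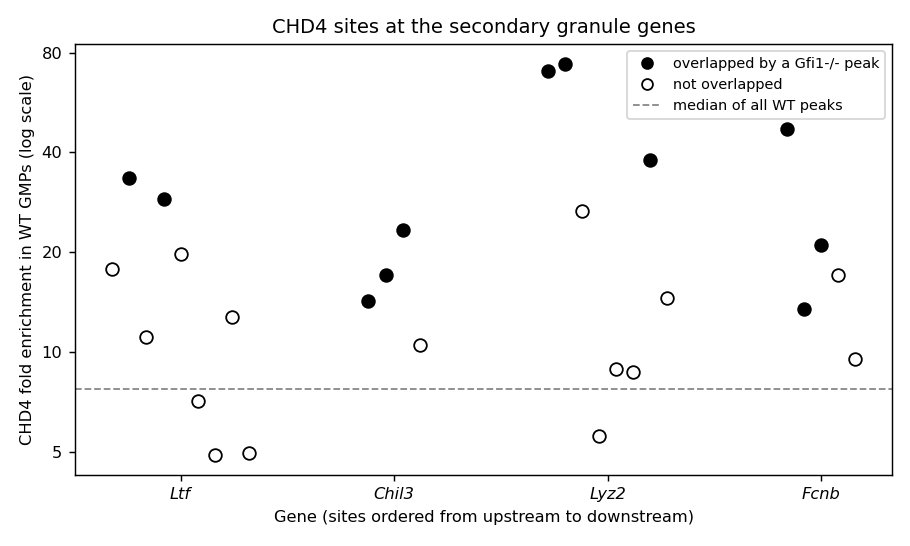
Fold enrichment (log scale) of the 26 CHD4 sites of WT GMPs at the 4 genes that have any, from upstream to downstream within each gene. Filled points are sites that a *Gfi1*-/- peak overlaps (11), open points are sites without one (15), and the dashed line is the median of all WT peaks, 7.72.

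The CHD4 sites of GMPs all overlapped H3K4me2 peaks of preNeu cells. Of the 26 sites 12 overlapped an H3K4me2 peak in GMPs (37.8% of all WT CHD4 peaks did), 26 in preNeu cells (59.5% of all) and 22 in matNeu cells (52.5% of all). Of the 26, 22 lay in the 4 wide preNeu domains over the gene starts, 3 in a peak of 2.62 kb downstream of *Ltf* and 1 in a peak of 1.63 kb at the end of *Fcnb*, so that they are not independent observations. At *Ltf* the 6 sites from the upstream one to the last intronic one overlapped no GMP H3K4me2 peak, and all 6 lay in the 37.4-kb preNeu domain. The 4 sites without the mark in matNeu cells were all at *Ltf*, in introns and downstream.

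**Figure D5:**
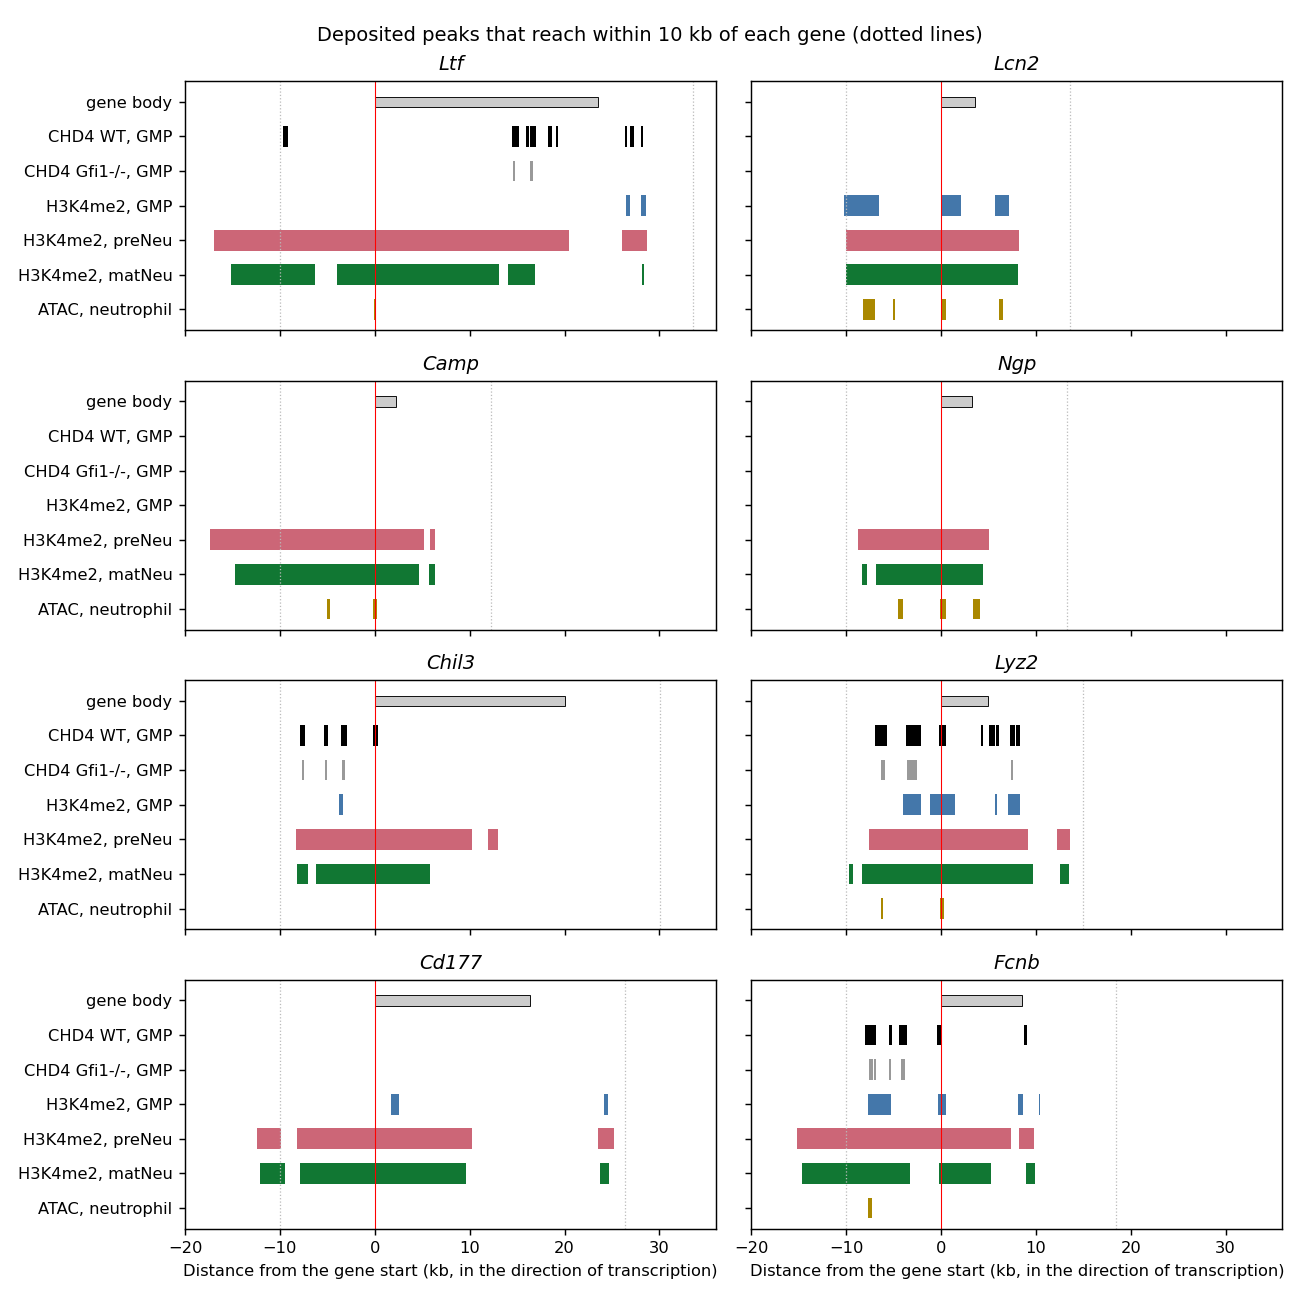
Peaks that reach within 10 kb of each gene (dotted lines), drawn against the distance in kb from the gene start in the direction of transcription, for CHD4 in WT and *Gfi1*-/- GMPs, H3K4me2 in 3 cell types and ATAC-seq. CHD4 peaks occur at *Ltf*, *Chil3*, *Lyz2* and *Fcnb*, and in preNeu cells an H3K4me2 domain of 13.8 to 37.4 kb spans every start.

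The sequence is shown at 5 of the 11 kept sites, the strongest of each gene and the second strongest of *Lyz2*, to give the letters under CHD4 summits that remained without GFI1. Each run holds the summit with 100 bases on either side, from the reference genome GRCm38.p6 in the direction of the gene, with the letters AAATCA, GAGGAAGT and TTNNGNAA on either strand in capitals. The runs are chr10:117285051-117285251 and chr10:117288326-117288526 at *Lyz2*, chr2:28092186-28092386 at *Fcnb* and chr3:106170703-106170903 at *Chil3*, all minus strand, and chr9:111033825-111034025 at *Ltf*, plus strand.
Lyz2 site with fold 74.1: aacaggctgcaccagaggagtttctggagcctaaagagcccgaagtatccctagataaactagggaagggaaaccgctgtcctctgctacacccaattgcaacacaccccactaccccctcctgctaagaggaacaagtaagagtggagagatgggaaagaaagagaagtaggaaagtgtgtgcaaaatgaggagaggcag
Lyz2 site with fold 70.4: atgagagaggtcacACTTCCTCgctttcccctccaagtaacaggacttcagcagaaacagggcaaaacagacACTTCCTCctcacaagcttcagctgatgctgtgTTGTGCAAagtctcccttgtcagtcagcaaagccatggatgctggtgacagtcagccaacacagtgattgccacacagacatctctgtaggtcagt
Fcnb site: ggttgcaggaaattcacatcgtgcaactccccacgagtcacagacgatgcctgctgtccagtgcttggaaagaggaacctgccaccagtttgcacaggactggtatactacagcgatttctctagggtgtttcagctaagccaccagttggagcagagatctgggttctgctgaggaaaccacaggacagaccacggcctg
Ltf site: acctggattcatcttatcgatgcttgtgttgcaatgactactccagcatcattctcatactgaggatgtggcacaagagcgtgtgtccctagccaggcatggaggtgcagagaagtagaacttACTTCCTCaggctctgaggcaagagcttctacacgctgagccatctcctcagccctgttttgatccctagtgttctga
Chil3 site: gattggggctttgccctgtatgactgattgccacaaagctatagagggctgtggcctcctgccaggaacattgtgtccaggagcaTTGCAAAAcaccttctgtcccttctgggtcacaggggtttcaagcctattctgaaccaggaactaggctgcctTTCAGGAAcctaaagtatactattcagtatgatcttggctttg
None of the 5 runs holds AAATCA. The second *Lyz2* run holds the SPI1 word 2 times, both as its reverse complement, and the *Ltf* run holds it 1 time. The strongest *Lyz2* and the *Fcnb* run hold none of the 3 words. Over all 26 sites AAATCA was within 100 bases of 3 summits, against 12.1% of 35728 WT summits, GAGGAAGT of 6, against 11.8%, and TTNNGNAA of 12, against 52.2%. The 3 with AAATCA were all at *Chil3*. Kept and lost sites held AAATCA in 2 of 11 and 1 of 15, GAGGAAGT in 3 of 11 and 3 of 15, and TTNNGNAA in 5 of 11 and 7 of 15.

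Open chromatin was read from 1 ATAC-seq list, because the lists deposited for preNeu and matNeu cells were identical and it cannot be said which stage it holds. Of the 8 genes 6 had a peak in the window. The share of all genes with such a peak was not computed, so that this count cannot be called high or low. A peak covered the annotated start of *Ltf*, *Camp*, *Ngp* and *Lyz2*, and at *Lcn2* a peak lay within the first 500 bases. *Fcnb* had a single peak 7.43 kb upstream, which overlapped its strongest CHD4 site, and *Lyz2* had another at its second strongest, 6.19 kb upstream. *Chil3* and *Cd177* had 0, in a list of 16307 peaks. Since its stage is not known, this absence cannot be set against their RNA in either cell type.

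Other genes overlap the windows of 5 members, and a peak there need not belong to the member. They are *Ciz1*, *1110008P14Rik* and *Ptges2* at *Lcn2*, *Nme6* at *Camp*, *Klhl18* at *Ngp*, *Lyz1* at *Lyz2* and *Gm13371* at *Fcnb*. Among them *Nme6* had 88.1 ± 11.4, 82.9 ± 11.4 and 1.68 ± 2.07 TPM in GMP, preNeu and matNeu cells and *Klhl18* 15.4 ± 1.49, 19.0 ± 4.63 and 33.4 ± 5.45 TPM. From GMPs to preNeu cells neither passed the test (log2 -0.09 and 0.26, limma adjusted p = 0.884 and 0.315). Next to *Lcn2*, *1110008P14Rik* (2.14, limma adjusted p = 0.00145) and *Ptges2* (1.32, limma adjusted p = 0.0202) rose, and *Ciz1* fell by 0.69 (limma adjusted p = 0.0315), close to the median of -0.52 over all genes. The windows of *Ltf*, *Chil3* and *Cd177* hold no other annotated gene.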

How the data were processed

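RNA-seq libraries (TruSeq Stranded mRNA) were read from 1 table of TPM values for 34896 genes, which the authors deposited, and each library sums to 1000000. The submitters' processing notes name kallisto 0.44.0 and mm10, whereas the study's methods name a counting pipeline, and which made the TPM is not stated. For ChIP-seq and ATAC-seq the authors deposited 1 MACS2 peak list per library, with fold enrichment over background and -log10 q-values. The notes name FastQC 0.11.5, MultiQC 1.6, Trimmomatic 0.36, BWA 0.7.17 and MACS2 2.1.0. The threshold and control are not given in the sources used here, and the peak score column was not used.

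Genes that reached 1 TPM in 3 or more libraries entered limma 3.58.1 (R 4.3.3) on log2(TPM + 1), with a mean-variance trend, cell type as the only term, all 9 libraries in 1 fit, and Benjamini-Hochberg adjustment over 13061 genes at 0.05. The study's count method could not be used, since TPM keeps no depth. A log2 change on this scale understates the change of low genes, and fold values are ratios of mean TPM. Peaks were assigned to a gene body extended by 10 kb on both sides, and a WT CHD4 peak was kept if a *Gfi1*-/- peak overlapped it by at least 1 bp. Shares carry 95% Wilson intervals for counting error only. Sequences, motifs and shared 31-base words came from GRCm38, GENCODE M21 and RefSeq. Python 3.11.15, numpy 2.4.6, pandas 2.3.3, scipy 1.17.1 and matplotlib 3.10.9 were used.

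Named were the 8 members, all paralogs, regulators and genes overlapping the windows, of every other list the 3 with the largest called change in the first step and any gene that a count of 5 or fewer stands for, and the 3 genes most like each member among those reaching a mean of 10 TPM in a cell type. For *Fcnb* 2 of these are given, and the other is not reported here. Of the marker lists, *Cd34* and *Cxcr2* define gates, and *Csf1r*, *Cd3e*, *Ncr1*, *Mcpt8* and *Prss34* were named after their values were seen. The members and lists were chosen with earlier results of these data known. Alternatives were another pseudocount, filter, scaling, variance model, set of samples, replicate block, peak threshold, window and overlap, and leaving out each library. The lists deposited for GFI1 and H3K4me3 carry human scaffold names and positions beyond the ends of mouse chromosomes and were not used here.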

Additional observations from a re-analysis of the deposited data

How the results depend on the processing

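Of 336 member comparisons under the alternatives run, 333 kept their direction and their side of the threshold. The 3 others were all *Lyz2* in matNeu against preNeu cells, with each library centred on its median (log2 0.70, limma adjusted p = 0.0207, which makes 1 member higher in matNeu cells) and without 1 library, where its log2 change ranged from -0.18 to 0.02 and its sign turned without preNeu replicate 1 (0.02) or matNeu replicate 3 (0.01). Its adjusted p ranged from 0.0207 to 0.982 (limma). Median centring moved the median log2 change of all genes from -0.52, -0.32 and -0.92 to 0.11, 0.45 and 0.47, and the genes called higher and lower to 3828 and 3166 in preNeu against GMP, 5530 and 3251 in matNeu against preNeu, and 6023 and 4063 in matNeu against GMP. Scaling without the 10 most abundant genes gave 2512 and 4588 in the first of these. With the replicate block the counts were 1923 and 5729, 2970 and 5172, and 2967 and 7065. The block changed no member's call. Deviations of libraries with the same number correlated by -0.04 to 0.12. These values show no pairing by number, but with 3 libraries per cell type they cannot exclude it. Without 1 library the members' share of TPM was 0.0799 to 0.105% for GMPs, 18.7 to 20.3% for preNeu cells and 3.41 to 3.97% for matNeu cells. A window of 50 kb held 47 CHD4 peaks of WT GMPs, and the share kept in *Gfi1*-/- GMPs ranged from 31.9 to 42.3% over the windows, peak threshold and overlap. In that window the median H3K4me2 coverage was 4.24, 28.1 and 25.2% in GMP, preNeu and matNeu cells, and at a -log10 q of at least 5 it was 0 in GMPs. The read depth of every library is unknown, a peak list's length depends on it, and with 1 library per list no difference between lists has a replicate check. The peak lists cannot show the *Gfi1* deletion.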
